A study of Mus musculus with 80 samples.

Results

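The potassium channel genes described here are the genes of the array whose annotated symbol begins with Kcn and whose probe was detected at p under 0.05 on 4 or more of 80 arrays, each represented by its brightest probe. Of 70 Kcn symbols on the array, 56 met that rule, among 11381 genes tested in all. The rule used detection and brightness over all groups and no comparison between groups. The arrays measured the dorsal hippocampal injection model of temporal lobe epilepsy in adult male C57BL/6J mice aged 12 weeks. The KA mice received 50 nl of 20 mM kainic acid (KA), an agonist of glutamate receptors that brings on status epilepticus, in the right dorsal hippocampus, and the sham mice received 0.9% saline at the same place. The hippocampus of the injected side (ipsilateral, IL) and that of the opposite side (contralateral, CL) were hybridised separately. Each side had 8, 9 and 9 KA mice at 7, 28 and 60 days after the injection, against 4, 5 and 5 sham mice, and the mice at each day were different animals. The tissue was whole hippocampus without sorting, so that fewer cells of a type and less RNA per cell cannot be told apart.

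Potassium channels set the resting potential of neurons and glia and end the action potential, and glia also use them to clear potassium from the extracellular space. Pore-forming subunits fall into voltage-gated (Kv), inward rectifier (Kir), tandem-pore leak (K2P) and calcium or sodium activated classes. Auxiliary subunits such as the KCNE, KChIP and beta proteins set the gating and surface number of the pores, and silent Kv subunits act only in complexes with other Kv subunits. Loss of potassium current raises excitability, and several of these genes are epilepsy genes in people.

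The 56 genes comprised 14 auxiliary subunits, 7 Kv pore subunits of the Kcna, Kcnc and Kcnd groups, 5 silent Kv subunits, 5 subunits of the ether-à-go-go (EAG) group, 2 KCNQ subunits, 9 Kir subunits, 9 K2P subunits and 5 subunits of the calcium or sodium activated class. Classes follow the symbols, and Kcnu1 was placed in the last class by its symbol, not by how its channel opens. The 14 symbols that did not meet the rule were Kcna5, Kcna10, Kcnd1, Kcnd3, Kcne3, Kcnj5, Kcnj14, Kcnk9, Kcnk15, Kcnk18, Kcnmb1, Kcnn3, Kcnn4 and Kcnq1, each detected on 0 to 2 arrays. Just inside the rule lay Kcnj15, detected on 4 arrays, Kcnh5 on 5 and Kcnh6 on 6, and just outside it lay Kcnj5, detected on 2. On all 80 arrays 25 of the 56 genes were detected, and 12 were detected on fewer than 40.

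The start regions of 4 genes that the results below turn on are shown because the first pair rose and the second pair fell after KA at day 7. Of the 56 genes, 44 had an entry in the RefSeq promoter table (GRCm38.p6), among them 13 of the 15 genes that passed the test in any comparison. Each sequence is the 250 bases before the annotated transcription start, 5′ to 3′ on the gene's strand. Capitals mark any match, on either strand, to the motifs TGANTCA (AP-1), TGACGTCA (CRE), GCGNGGGCG (Egr1), TTCNNNGAA (STAT) and GAGGAA (the core of the PU.1 site).
Kcne1l: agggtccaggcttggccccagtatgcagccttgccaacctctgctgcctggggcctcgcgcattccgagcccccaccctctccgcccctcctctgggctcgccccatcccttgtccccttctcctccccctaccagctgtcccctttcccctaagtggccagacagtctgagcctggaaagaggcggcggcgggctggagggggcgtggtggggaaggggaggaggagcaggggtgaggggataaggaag
Kcnk13: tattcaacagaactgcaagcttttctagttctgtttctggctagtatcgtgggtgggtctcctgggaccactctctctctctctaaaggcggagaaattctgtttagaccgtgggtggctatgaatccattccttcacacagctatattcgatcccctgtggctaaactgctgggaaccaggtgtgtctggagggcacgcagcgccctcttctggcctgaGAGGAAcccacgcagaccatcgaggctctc
Kcnk4: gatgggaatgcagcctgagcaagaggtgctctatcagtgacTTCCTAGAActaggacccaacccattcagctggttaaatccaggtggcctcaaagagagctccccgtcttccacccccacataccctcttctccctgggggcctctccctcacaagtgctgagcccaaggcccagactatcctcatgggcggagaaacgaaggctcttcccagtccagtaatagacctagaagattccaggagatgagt
Kcnip2: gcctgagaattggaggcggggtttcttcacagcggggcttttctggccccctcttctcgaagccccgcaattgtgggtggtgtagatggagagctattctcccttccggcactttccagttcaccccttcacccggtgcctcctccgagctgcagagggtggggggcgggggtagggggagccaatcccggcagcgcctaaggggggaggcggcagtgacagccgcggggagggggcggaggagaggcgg
The window of Kcne1l lay at chrX:142306199-142306448 (minus strand), that of Kcnk13 at chr12:99964249-99964498 (plus strand), that of Kcnk4 at chr19:6934516-6934765 (minus strand) and that of Kcnip2 at chr19:45816064-45816313 (minus strand). The window of Kcnk13 held 1 PU.1 core, a sequence found in 23.3% of all 32851 windows of the table. The window of Kcnk4 held 1 STAT motif, found in 7.02% of all windows. The letters of the 5 motifs were not in the windows of Kcne1l and Kcnip2. AP-1, CRE and Egr1 motifs were in 6.75%, 1.55% and 4.7% of all windows. Among the called genes not shown, Kcnip3 and Kcnip4 each had 1 window with 1 AP-1 motif. The windows of Kcnf1 and Kcnk1 held 2 PU.1 cores each. The windows of Kcnip3 also held 1 STAT motif and 1 PU.1 core.

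Values are normalised probe intensities on the log2 scale, and a difference is KA minus sham in log2 units with its standard error (SE). A gene is called where limma's Benjamini-Hochberg adjusted p, taken over all 11381 genes, is under 0.05. The share of probes detected was 46.8% to 66.9% across arrays. Of the 11 slides, slide 9 had the lowest share on average, with 46.8% to 56.8% on its 7 arrays. The arrays of 2 animals also stood apart from their groups. In the KA mouse 188 at day 7, the mean of the microglial and macrophage markers was 7.69 on the IL side and 7.16 on the CL side, against 9.22 to 10.14 and 7.84 to 9.29 in the other KA mice of that day. In the sham mouse 138 at day 28, the mean of the neuronal markers was 9.20 on the IL side and 9.27 on the CL side, against 11.47 to 11.57 and 11.41 to 11.54 in the other sham mice. Slide 4 had the next lowest share of probes detected, 56.8% on average. On it, the oligodendrocyte marker mean was 8.84 in CL KA replicate 4 of day 28 and 8.91 in CL KA replicate 3 of day 60. The other arrays of these groups had 10.12 to 10.85 and 10.11 to 10.52. Slide 4 was not left out as a whole. Calls that were lost or gained without slide 9, mouse 188 or mouse 138 are given with the genes they concern. These exclusions were chosen after seeing the data, and mouse 188 had the lowest Kcne1l and Kcnk6 of the KA mice at day 7. Calls gained without it are therefore not independent support.

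Of the 56 potassium channel genes, 8 differed between KA and sham mice on the injected side at day 7, 3 higher and 5 lower after KA. Those higher were Kcne1l, Kcnk6 and Kcnk13, and those lower were Kcnk4, Kcnip2, Kcnv1, Kcnip4 and Kcnc1. Of all genes tested, 10.5% were called, 7.45% higher and 3.03% lower. The potassium channel genes were called at 14.3%, with more lower than higher, while all genes were called mostly higher. Higher genes made up 71.1% of all calls at day 7, 75.4% at day 28 and 72% at day 60, against 81.7%, 94% and 86% when arrays were scaled to a common median instead of quantile normalised. For the IL minus CL difference at day 28 and the change to day 60 described below, the shares were 87.1% and 25%, against 97.7% and 12.2%. The median difference of the 56 genes was −0.22, against −0.043 over all genes, and 43 of the 56 differences were negative. Over all genes 42.5% of the differences were positive.

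**Figure D1:**
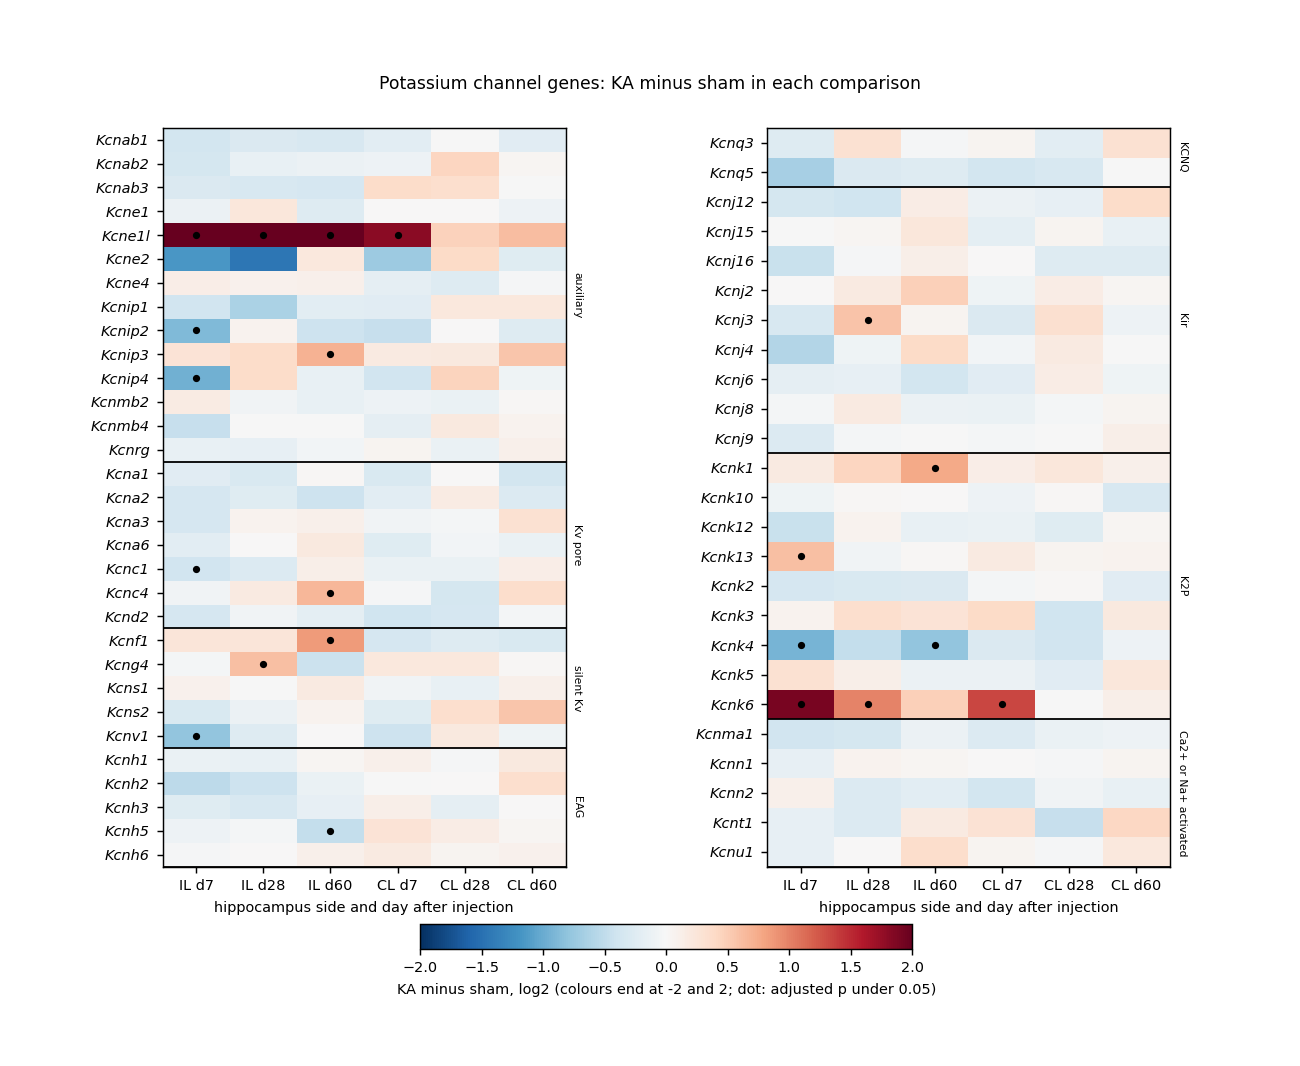
Difference between KA and sham (log2, colour) for each of the 56 genes in rows, grouped by class, on the injected (IL) and opposite (CL) side at days 7, 28 and 60 in columns. Dots mark adjusted p under 0.05. Kcne1l and Kcnk6 stand out at several times, and most other cells lie near 0.

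Kcne1l encodes an accessory subunit of the KCNE family, small proteins with a single membrane span that alter Kv channels, and its human counterpart inhibits KCNQ1 in expression systems. Kcne1l at day 7 on the injected side measured 7.97, 11.01 and 11.76 (lowest, median and highest of 8 KA mice), against 7.29, 8.14, 7.58 and 7.18 in the 4 sham mice. In 7 of 8 KA mice it was above every sham mouse, and the exception was mouse 188. The difference was 3.10 ± 0.36 (SE, limma adjusted p = 1.73e-09), an 8.57-fold higher level after KA.

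Kcne1l was called higher after KA on the injected side at all 3 times. At day 28 it measured 8.96, 9.39 and 10.55 (lowest, median and highest of 9 KA mice), against 6.99, 7.42, 7.35, 6.90 and 7.87 in sham mice. The groups did not overlap, and the difference was 2.22 ± 0.33 (SE, limma adjusted p = 1.59e-06). At day 60 it measured 8.26, 9.29 and 10.37 in KA mice, against 7.25, 7.07, 7.18, 7.10 and 7.40 in sham mice. Again the groups did not overlap, and the difference was 2.08 ± 0.33 (SE, limma adjusted p = 6.32e-06). On slides carrying KA and sham arrays together, the difference was 1.73 to 3.81 at day 7, 2.34 to 3.56 at day 28 and 1.01 to 2.97 at day 60. The change of the KA effect between day 7 and day 60 was −1.02 ± 0.49 (SE) and did not pass the test (limma adjusted p = 0.416). Without both arrays of mouse 188 it was called at −1.41 (limma adjusted p = 0.0183).

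Kcnk6 encodes TWIK-2, a K2P channel that in mouse macrophages lets potassium out of the cell during activation of the NLRP3 inflammasome. At day 7 on the injected side it measured 7.41, 9.52 and 9.66 (lowest, median and highest of 8 KA mice), against 7.29, 7.36, 7.40 and 7.30 in the 4 sham mice. All 8 KA mice were above every sham mouse, although mouse 188, the lowest, exceeded the highest sham mouse by little. The difference was 1.90 ± 0.25 (SE, limma adjusted p = 1.57e-08), and the other kept probe of Kcnk6 gave 1.34. At day 28 it measured 7.74, 8.18 and 9.13 in 9 KA mice, against 7.10, 7.13, 7.11, 7.40 and 7.48 in sham mice. These groups also did not overlap, and the difference was 0.996 ± 0.23 (SE, limma adjusted p = 0.00256).

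At day 60 Kcnk6 was no longer called on the injected side. It measured 7.29, 7.54 and 8.12 in 9 KA mice, against 7.17, 7.45, 7.22, 7.22 and 6.93 in sham mice. Although 8 of 9 KA mice were above every sham mouse, the difference of 0.47 ± 0.23 did not pass the test (SE, limma adjusted p = 0.283). The KA effect on Kcnk6 was itself smaller at day 60 than at day 7, by −1.44 ± 0.34 (SE, limma adjusted p = 0.0103). Of the 56 genes, 2 changed their KA effect between these days on the injected side, 1 upward and 1 downward. Of all genes, 1.65% did, 0.413% upward and 1.24% downward. This comparison shares its samples with the comparisons at day 7 and day 60. On the CL side the change from day 7 to day 60 gave 0 of the 56 genes by limma, with 4 at an unadjusted p under 0.05, and 0.00879% of all genes. On the IL side the change of Kcnj4 was 0.96 (limma adjusted p = 0.0709), and it was called at 1.10 without both arrays of mouse 188 (limma adjusted p = 0.00963) and at 0.92 with slide as a block (limma adjusted p = 0.00836). On the CL side Kcnk6 gave −1.21 ± 0.34 (SE, limma adjusted p = 0.24), and it was called without both arrays of mouse 188, at −1.39 (limma adjusted p = 0.000797).

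Kcnk13 encodes THIK-1, the K2P channel that holds the resting potential of microglia and supports the branching of their processes. At day 7 on the injected side it measured 7.39, 7.94 and 8.30 (lowest, median and highest of 8 KA mice), against 7.31, 7.40, 7.17 and 7.48 in sham mice. In 7 of 8 KA mice it was above every sham mouse, and mouse 188 lay among the sham mice. The difference was 0.61 ± 0.19 (SE, limma adjusted p = 0.0283), and 0.69 without both arrays of mouse 188 (limma adjusted p = 0.00805). The call was lost when any of 6 of the 12 arrays was left out, namely sham replicates 1, 2 and 3 and KA replicates 1, 6 and 7, with an adjusted p of up to 0.113. The adjusted p was 0.089 under median scaling and 0.07 with the replicate number as a block. At days 28 and 60 its group means were 7.59 and 7.68 in KA mice, against 7.66 and 7.65 in sham mice.

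**Figure D2:**
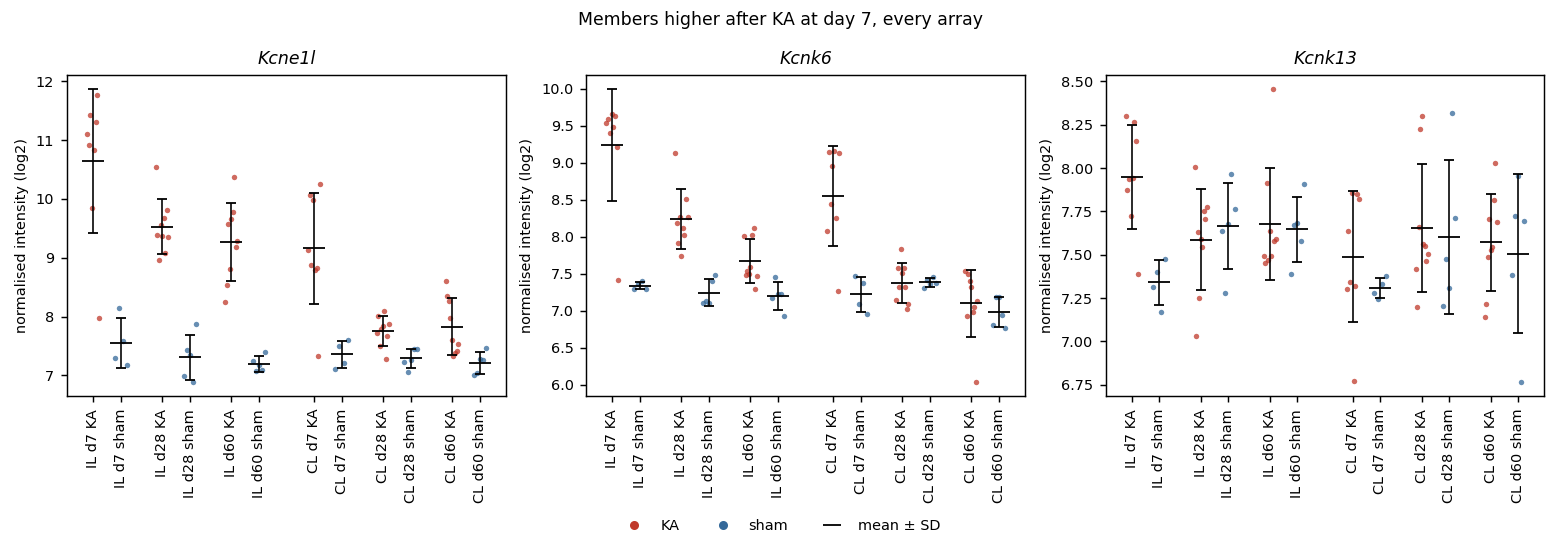
Normalised intensity (log2) of Kcne1l, Kcnk6 and Kcnk13 on every array, by side and day, with KA mice in red left of sham mice in blue and the mean ± SD in black. On the injected side at day 7, 1 KA mouse lies apart from the other 7 in the panels of Kcne1l and Kcnk6.

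Markers of microglia and macrophages were measured beside these genes. Of 8 listed markers 6 were tested, and all 6 (Aif1, Cx3cr1, Tmem119, P2ry12, C1qa and Gpnmb) rose at day 7 on the injected side, while Csf1r and Cd68 were not tested. Their mean level was 7.69 to 10.14 in KA mice, against 7.07 to 7.58 in sham mice. At day 28, 4 of the 6 rose and the mean level was 8.21 to 9.64, against 7.21 to 7.55 in sham mice. At day 60, 2 of the 6 rose, C1qa and Gpnmb, and the mean level was 7.72 to 9.11, against 7.08 to 7.53 in sham mice. Of 8 astrocyte markers 4, 3 and 2 rose at days 7, 28 and 60, with a mean level of 10.25 to 11.19 in KA mice at day 7, against 9.91 to 10.30 in sham mice. The part of these markers in the differences of Kcne1l, Kcnk6 and Kcnk13 was not tested.

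The opposite hippocampus carried the same pair at day 7. Of the 56 genes, 2 were called on the CL side, Kcne1l and Kcnk6, both higher after KA. Of all genes 1.54% were called, 1.49% higher and 0.0439% lower, and the median difference of the 56 genes was −0.096, against −0.017 over all genes. Kcne1l measured 7.33, 9.00 and 10.25 (lowest, median and highest of 8 KA mice), against 7.10, 7.49, 7.22 and 7.61 in the 4 sham mice. Mouse 188 was the only KA mouse among the sham values, and the difference was 1.80 ± 0.36 (SE, limma adjusted p = 0.0013). Kcnk6 measured 7.26, 8.70 and 9.15 in KA mice, against 7.46, 7.09, 7.38 and 6.95 in sham mice. Here too 7 of 8 KA mice were above every sham mouse, and the difference was 1.33 ± 0.25 (SE, limma adjusted p = 0.00045). The other kept probe of Kcnk6, detected on 39 of 80 arrays, gave 0.47 on this side. On the 2 slides carrying KA and sham arrays together, the difference was 1.83 to 2.25 for Kcne1l and 0.80 to 1.41 for Kcnk6. On this side 4 of the 6 microglial and macrophage markers rose, with a mean level of 7.16 to 9.29 in KA mice, against 7.16 to 7.41 in sham mice. Kcnk13 was not called here, with 4 of 8 KA mice above every sham mouse and 1 below.

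On the CL side at days 28 and 60 limma called 0 of the 56 genes, with 3 and 4 of them at an unadjusted p under 0.05. Of all genes 0.0879% were called at day 28 and 0.0615% at day 60 (0.0527% higher and 0.00879% lower). Kcne1l differed by 0.46 ± 0.33 at day 28 (SE, limma adjusted p = 0.632) and by 0.62 ± 0.33 at day 60 (SE, limma adjusted p = 0.707). Kcnk6 differed by −0.01 ± 0.23 at day 28 and 0.12 ± 0.23 at day 60 (SE). At day 60 on the CL side Kcnip3 had the smallest p of the 56 genes, with a difference of 0.55 ± 0.15 (SE, limma adjusted p = 0.198).

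The 2 sides of the same brain were then compared. Kcne1l was higher on the IL than on the CL side in 8 of 8, 9 of 9 and 9 of 9 KA mice at days 7, 28 and 60, against 2 of 4, 3 of 5 and 3 of 5 sham mice. The IL minus CL difference of the KA effect was called at day 28, at 1.76 ± 0.45 (SE, limma adjusted p = 0.0275), where 1.02% of all genes were called, 0.887% higher and 0.132% lower. It was 1.30 ± 0.49 at day 7 (SE, limma adjusted p = 0.784) and 1.46 ± 0.45 at day 60 (SE, limma adjusted p = 0.136). The call at day 28 was lost without KA replicate 1 or sham replicate 4 of the IL side, to an adjusted p of up to 0.0702. Without the arrays of slide 9 the difference was 1.79 (limma adjusted p = 0.119).

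Kcnk6 was higher on the IL side in 8 of 8, 9 of 9 and 8 of 9 KA mice, against 2 of 4, 1 of 5 and 4 of 5 sham mice. Its IL minus CL difference was 1.003 ± 0.31 at day 28 (SE, limma adjusted p = 0.0827), and was called under median scaling (limma adjusted p = 0.0288), with animal as a fixed block (limma adjusted p = 0.0253) and without both arrays of mouse 188 (limma adjusted p = 0.00733). At days 7 and 60, 0 of the 56 genes were called for this difference by limma, with 3 and 8 at an unadjusted p under 0.05. Of all genes 0.0264% were called at day 7 and 0.65% at day 60 (0.518% higher and 0.132% lower). At day 60 the fit with animal as a fixed block called 2 genes, Kcne1l (1.46) and Kcnf1 (1.15), both at a limma adjusted p of 0.0458. Without both arrays of mouse 188 these genes were also called, at a limma adjusted p of 0.016 for Kcne1l and 0.0495 for Kcnf1. In sham mice alone 0 of the 56 and 0 of all genes differed between the sides, a background of 0%, with 1 of the 56 at an unadjusted p under 0.05.

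Kcnk4 encodes TRAAK, a leak channel of axons that opens to membrane stretch and polyunsaturated fatty acids. Its day 7 values on the injected side were 5.12, 6.20 and 7.05 (lowest, median and highest of 8 KA mice), against 6.84, 6.99, 7.35 and 7.00 in the 4 sham mice. It was below every sham mouse in 7 of 8 KA mice, and the exception was mouse 188. The difference was −0.93 ± 0.23 (SE, limma adjusted p = 0.00247). On the 3 slides with KA and sham arrays together it lay between −1.61 and −0.72. Kcnk4 was also called lower at day 60, at 5.75, 6.78 and 7.26 in 9 KA mice, against 6.98, 7.83, 7.26, 7.04 and 7.75 in sham mice. There 8 of 9 KA mice were below every sham mouse, and the difference was −0.78 ± 0.21 (SE, limma adjusted p = 0.0122). At day 28 the difference was −0.48 ± 0.21 (SE, limma adjusted p = 0.169). Leaving out sham replicate 2 or 5 ended the call at day 60, to an adjusted p of up to 0.0829, under median scaling (0.0604) and without the arrays of slide 9 (0.147). The other 2 kept probes of Kcnk4, detected on 30 and 40 arrays, gave −0.35 and −0.51 at day 7 and −0.18 and −0.69 at day 60.

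Kcnip2 and Kcnip4 encode KChIPs, calcium-binding proteins that bind Kv4 channels and shape the A-type current of dendrites. At day 7 on the injected side Kcnip2 measured 6.00, 6.81 and 7.61 (lowest, median and highest of 8 KA mice), against 7.71, 7.52, 7.70 and 8.08 in the 4 sham mice. Only mouse 188 was not below every sham mouse. The difference was −0.89 ± 0.23 (SE, limma adjusted p = 0.00412), and the other kept probes gave −0.98 and −0.78. Kcnip4 measured 5.97, 6.64 and 7.15 in KA mice, against 7.39, 7.66, 7.73 and 7.61 in sham mice. The groups did not overlap, and the difference was −0.96 ± 0.27 (SE, limma adjusted p = 0.00994). Neither was called at day 28, where their means were 7.01 and 7.09 in KA mice, against 6.93 and 6.72 in sham mice. For both genes this sham mean lay below every sham value of day 7. Sham replicates 4 and 5 of day 28 were on slide 9, the latter from mouse 138. The change of the KA effect from day 7 to day 28 was not tested. At day 60 the means were 7.28 and 7.33 in KA mice, against 7.70 and 7.48 in sham mice.

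Kcnv1 encodes Kv8.1, a silent subunit that alters Kv2 channels. At day 7 on the injected side it measured 6.79, 7.55 and 7.95 (lowest, median and highest of 8 KA mice), against 8.07, 8.201, 8.68 and 7.83 in the 4 sham mice. In 7 of 8 KA mice it was below every sham mouse, and the difference was −0.79 ± 0.22 (SE, limma adjusted p = 0.00818). Without sham replicate 3 the adjusted p was 0.105. Kcnc1 encodes Kv3.1, which lets interneurons fire fast. It measured 9.55, 9.88 and 10.07 in KA mice, against 10.35, 10.12, 10.29 and 10.18 in sham mice. The groups did not overlap, and in all 8 KA mice the IL side was below the CL side, as it was in 3 of 4 sham mice. The difference of Kcnc1 was −0.38 ± 0.12 (SE, limma adjusted p = 0.0264). The call was lost on leaving out sham replicate 1 or 3 or KA replicate 6 or 7, to an adjusted p of up to 0.119, under median scaling (0.161), with the mean of its kept probes (0.0897) and with the replicate number as a block (0.054).

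**Figure D3:**
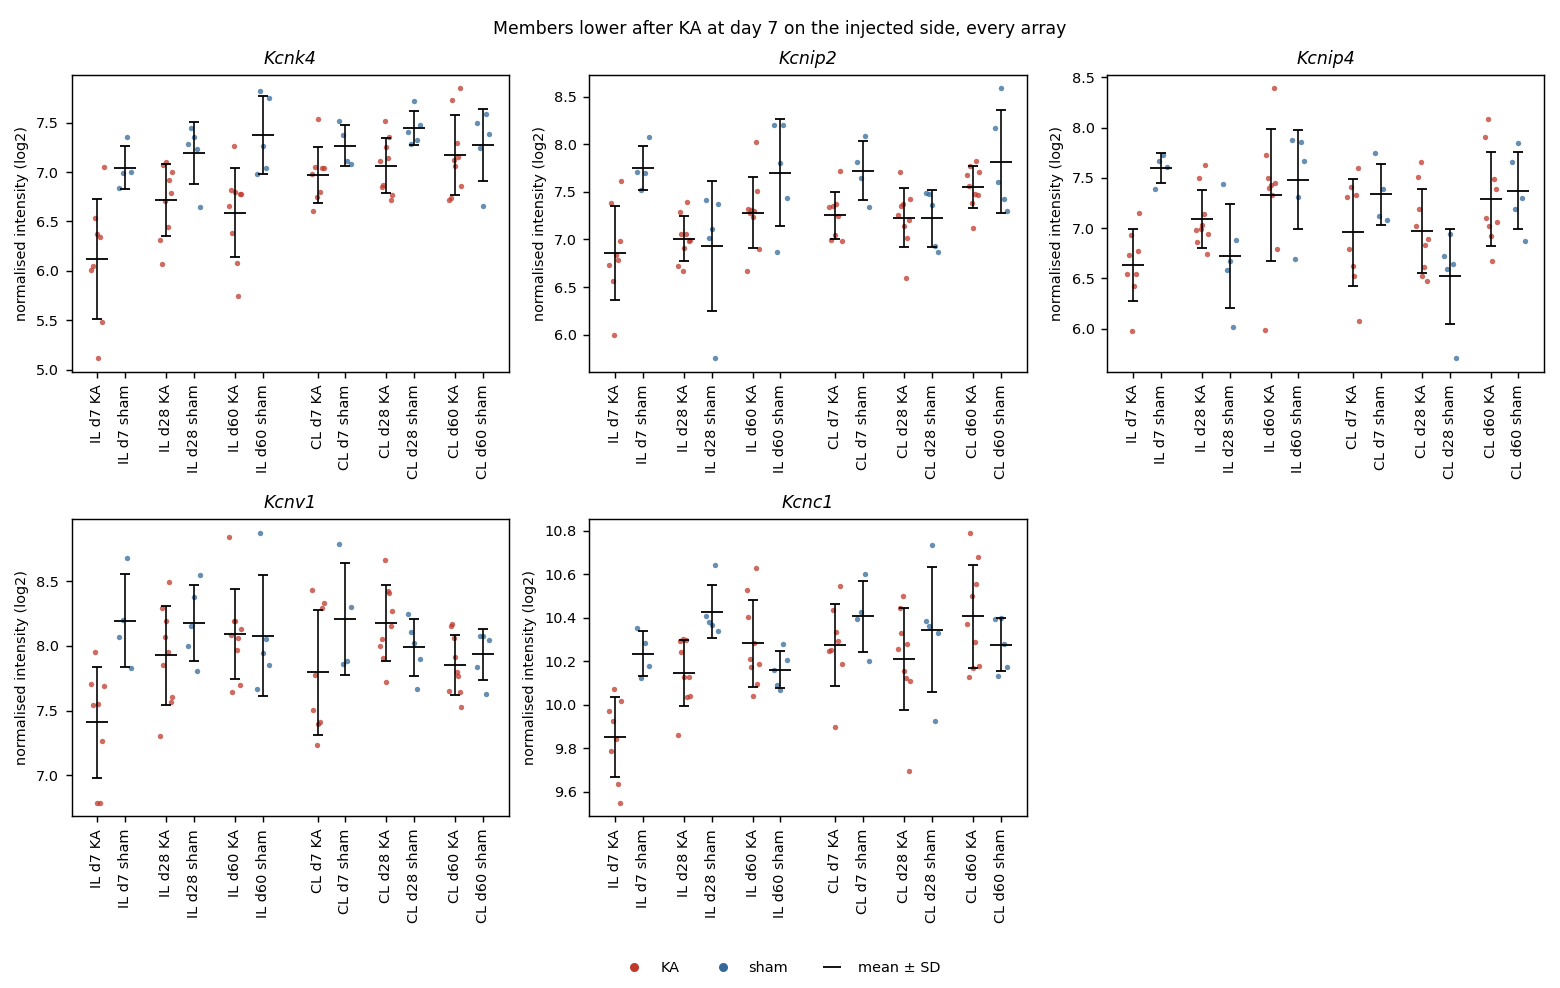
Normalised intensity (log2) of the 5 genes called lower at day 7 on the injected side, on every array by side and day, KA mice in red left of sham mice in blue, with the mean ± SD in black. The separation of Kcnip2, Kcnip4, Kcnv1 and Kcnc1 at IL day 7 is not seen at IL day 60, where KA and sham mice overlap.

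Neuronal markers were measured beside these 5 genes. Of 8 general neuronal markers 6 were tested and 0 were called at day 7, with 11.13 to 11.53 as their mean level in KA mice, against 11.51 to 11.63 in sham mice. Of 6 interneuron markers tested, 2 fell, Cort (−1.11 ± 0.23, SE, limma adjusted p = 0.000323) and Htr3a (−1.04 ± 0.24, SE, limma adjusted p = 0.000888). Of 4 CA1 pyramidal cell markers tested 1 fell, Mpped1 (−0.56 ± 0.17, SE, limma adjusted p = 0.0153). The mean level of the interneuron markers was 9.10 to 9.80 in KA mice, against 9.73 to 10.13 in sham mice, and that of the CA1 markers was 9.81 to 10.95, against 10.95 to 11.04. The part of these markers in the lower levels of the channel genes was not tested.

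Further genes lay near the threshold at day 7 on the injected side. They include Kcnh2, the ERG channel (−0.53 ± 0.19, SE, limma adjusted p = 0.0584), and Kcnmb4, the neuronal beta subunit of the large-conductance calcium-activated channel (−0.46 ± 0.16, SE, limma adjusted p = 0.0597). Kcnj4, a Kir2 channel of forebrain neurons, gave −0.58 ± 0.21 (SE, limma adjusted p = 0.0693), and Kcnq5, a subunit of the M current, gave −0.67 ± 0.26 (SE, limma adjusted p = 0.0958). Kcnq5 and Kcnj16 were below every sham mouse in all 8 KA mice, as Kcnip4 and Kcnc1 were, yet were not called. The share of all genes that separated in this way was not counted. Without both arrays of mouse 188, Kcnh2, Kcnmb4 and Kcnj4 were called, at −0.56, −0.54 and −0.72. Without both arrays of mouse 138, Kcnh2 (limma adjusted p = 0.0466) and Kcnmb4 (limma adjusted p = 0.0444) were called. With the mean of the kept probes, Kcnmb4 (−0.58, limma adjusted p = 0.0001) and Kcnab1 (−0.57, limma adjusted p = 0.00492) were called, and under median scaling Kcnq5 was (−0.76, limma adjusted p = 0.0217). With the replicate number as a block, Kcnj4 (−0.71) and Kcnmb4 (−0.50) were called. With slide as a block Kcnh2, Kcnmb4 and Kcnj4 were called, at −0.52, −0.53 and −0.63. Without the 7 arrays of slide 9, none of which belonged to day 7, the count was 13 rather than 8, with Kcnab1, Kcnh2, Kcnj16, Kcnmb4 and Kcnq5 added.

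By day 28, 4 of the 56 genes were called on the injected side, all higher after KA. Of all genes 5.87% were called, 4.43% higher and 1.44% lower, and the median difference of the 56 genes was −0.028, against −0.032 over all genes. Besides Kcne1l and Kcnk6 these were Kcng4, a silent subunit that modifies Kv2 channels, and Kcnj3, the GIRK1 subunit that carries inhibition by G protein coupled receptors. Kcng4 measured 5.85, 6.61 and 7.33 (lowest, median and highest of 9 KA mice), against 5.97, 6.11, 6.26, 5.77 and 5.74 in sham mice. In 7 of 9 KA mice it was above every sham mouse, and the difference was 0.60 ± 0.17 (SE, limma adjusted p = 0.0249). Kcnj3 measured 6.19, 6.26 and 6.80 in KA mice, against 6.44, 5.98, 6.10, 5.44 and 5.00 in sham mice. Only 3 of 9 KA mice were above every sham mouse, and the difference was 0.58 ± 0.18 (SE, limma adjusted p = 0.0365).

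The sham arrays of slide 9, replicates 4 and 5, had the lowest values of Kcng4 and Kcnj3 among the sham mice. Without the arrays of slide 9 the difference was 0.46 for Kcng4 (limma adjusted p = 0.257) and 0.18 for Kcnj3 (limma adjusted p = 0.834). Sham replicate 5 was mouse 138, and without both its arrays the differences were 0.55 and 0.38 (limma adjusted p = 0.0868 and 0.288). Leaving out KA replicate 6 or either of these sham replicates also ended both calls, and the call of Kcnj3 was further lost without KA replicate 1, 2 or 3, with an adjusted p of up to 0.331. Kcnj3 was not called without background correction (0.0502), under median scaling (0.082) or with slide as a block (0.296). With slide as a block Kcng4 was called, at 0.69 (limma adjusted p = 0.0124). At day 60 Kcng4 lay on the other side of 0, at −0.44 ± 0.17 (SE, limma adjusted p = 0.157), with 7 of 9 KA mice below every sham mouse. Kcne1l and Kcnk6 were called without the arrays of slide 9, at 2.27 and 1.12 (limma adjusted p = 0.000169 and 0.00534).

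Kcnc1, lower at day 7, did not pass the test at day 28, although its groups did not overlap. It measured 9.86, 10.13 and 10.30 (lowest, median and highest of 9 KA mice), against 10.41, 10.38, 10.37, 10.64 and 10.34 in the 5 sham mice. The difference was −0.28 ± 0.11 (SE, limma adjusted p = 0.121). It was called with slide as a block (−0.34, limma adjusted p = 0.0217) and with the mean of its kept probes (−0.34, limma adjusted p = 0.0243). Of 2 dentate granule cell markers tested at day 28 on this side 1 was called, Prox1, which was higher (0.96, limma adjusted p = 0.0122). The median difference of these 2 was 0.22. Of 4 CA1 markers tested 1 was lower, Mpped1 (−0.58, limma adjusted p = 0.0106). Of 6 interneuron markers tested 1 was lower, Cort (−1.15, limma adjusted p = 0.000116). Of 6 general neuronal markers 0 were called by limma, with a mean level of 11.16 to 11.57 in KA mice, against 9.20 to 11.57 in sham mice. The part of these markers in the day 28 values was not tested.

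By day 60, 7 of the 56 genes were called on the injected side by the test, 5 higher and 2 lower after KA. Of all genes 4.67% were called, 3.37% higher and 1.31% lower, and the median difference of the 56 genes was 0.010, against −0.012 over all genes. Those higher were Kcne1l, Kcnc4, Kcnip3, Kcnk1 and Kcnf1, and those lower were Kcnk4 and Kcnh5. Kcnh5 was not detected in any KA mouse and has no bounded decrease. It met the detection rule only with the sham arrays of this comparison, so its call is not evidence of a fall. Of the 5 genes called lower at day 7, Kcnk4 was called again at day 60. Beside them on this side, 1 of 6 interneuron markers tested (Cort, −1.03) and 1 of 4 CA1 markers tested (Pou3f1, −1.01) were lower. Of 6 CA2 and CA3 markers tested 1 was lower (Iyd, −0.81), and of 5 endothelial and pericyte markers tested 1 was higher (Tek, 0.69). Of 6 general neuronal markers 0 were called by limma, with a mean level of 11.04 to 11.52 in KA mice, against 11.32 to 11.63 in sham mice. The part of these markers in the day 60 calls was not tested.

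Kcnc4 encodes Kv3.4, a fast inactivating Kv channel of presynaptic terminals such as the mossy fibre boutons. At day 60 it measured 12.06, 12.26 and 12.60 (lowest, median and highest of 9 KA mice), against 11.46, 12.25, 11.87, 11.22 and 11.11 in the 5 sham mice. In 5 of 9 KA mice it was above every sham mouse, and the SD was 0.16 in KA mice (n = 9), narrower than the 0.48 in sham mice (n = 5). The difference was 0.66 ± 0.13 (SE, limma adjusted p = 0.000208). On the 4 slides with KA and sham arrays together it lay between 0.03 and 1.49. Without the arrays of slide 9 it was 0.50 (limma adjusted p = 0.0207). Under median scaling it was 0.68 with an adjusted p of 0.073.

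The KA effect on Kcnc4 was greater at day 60 than at day 7, by 0.74 ± 0.19 (SE, limma adjusted p = 0.0226). At day 7 its means were 11.87 in KA and 11.94 in sham mice. That change was not called without sham replicate 1, 4 or 5 of day 60 or sham replicate 3 of day 7 (adjusted p of up to 0.0881), without the arrays of slide 9 (0.0997) or under median scaling (0.21). The 2 kept probes of Kcnc4 disagreed at day 7, where the dimmer probe gave −0.63 and the brightest −0.07, and gave 0.37 and 0.66 at day 60. On the CL side at day 60 the brightest probe differed by 0.35 ± 0.13 (SE, limma adjusted p = 0.441).

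Kcnip3 encodes KChIP3, also known as DREAM, which binds Kv4 channels and also acts in the nucleus as a calcium-regulated repressor of transcription. At day 60 it measured 10.47, 10.82 and 11.16 (lowest, median and highest of 9 KA mice), against 9.91, 10.61, 10.34, 9.74 and 10.23 in sham mice. In 8 of 9 KA mice it was above every sham mouse. The difference was 0.69 ± 0.15 (SE, limma adjusted p = 0.000916), and 0.16 to 0.98 within slides. It was called in each of the 14 fits that left out 1 array of these groups, with an adjusted p of at most 0.0141, and without slide 9 at 0.72 (limma adjusted p = 0.00112). At days 7 and 28 the differences were 0.27 ± 0.16 and 0.36 ± 0.15 (SE, limma adjusted p = 0.359 and 0.137), and with slide as a block Kcnip3 was called at day 28 (0.49, limma adjusted p = 0.0289). Thus of the 3 KChIP genes called in any comparison, Kcnip2 and Kcnip4 were lower at day 7 and Kcnip3 was higher at day 60.

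Kcnk1 encodes TWIK-1, a K2P channel of neurons and astrocytes, and Kcnf1 encodes Kv5.1, a silent subunit that pairs with Kv2 channels. At day 60 Kcnk1 measured 11.06, 11.48 and 12.21 (lowest, median and highest of 9 KA mice), against 11.04, 11.05, 10.83, 11.17 and 9.96 in sham mice. All but 1 of the KA mice were above every sham mouse, and the last sham replicate was far below the others. The difference was 0.76 ± 0.21 (SE, limma adjusted p = 0.016), against 0.55 without that replicate (limma adjusted p = 0.216) and 0.47 without the arrays of slide 9 (limma adjusted p = 0.303), while median scaling gave 0.75 (limma adjusted p = 0.157).

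Kcnf1 measured 10.28, 10.49 and 11.20 (lowest, median and highest of 9 KA mice), against 9.36, 10.37, 10.10, 9.06 and 9.72 in the 5 sham mice. In 6 of 9 KA mice it was above every sham mouse, and the difference was 0.84 ± 0.23 (SE, limma adjusted p = 0.0162). Leaving out sham replicate 1 or 4 ended the call (adjusted p of up to 0.108) and without the arrays of slide 9, at 0.78 (limma adjusted p = 0.0893). Kcnf1 was higher on the IL than on the CL side in 7 of 8, 8 of 9 and 9 of 9 KA mice at days 7, 28 and 60, against 2 of 4, 4 of 5 and 1 of 5 sham mice. The IL minus CL difference of its KA effect at day 60 was 1.15 ± 0.31 (SE, limma adjusted p = 0.06). It was called with slide as a block (1.21, limma adjusted p = 0.0112), under the strict filter (limma adjusted p = 0.049) and without both arrays of mouse 138 (limma adjusted p = 0.0433), besides the fits named above. On the CL side at day 60 Kcnf1 differed by −0.31 ± 0.23 (SE, limma adjusted p = 0.825), with 7 of 9 KA mice below every sham mouse.

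Kcnh5 encodes EAG2, a voltage-gated channel of forebrain neurons. At day 60 it measured 4.45, 4.57 and 4.69 (lowest, median and highest of 9 KA mice), against 4.72, 5.25, 4.61, 4.68 and 5.94 in sham mice. The probe was detected in 0 of 9 KA and 2 of 5 sham mice, and the mean was 4.57 in KA mice and 5.04 in sham mice. Over all 80 arrays it was detected on 5, including these 2. Without these sham mice Kcnh5 would not have met the rule of 4 arrays. With so few detected arrays the values bound no decrease, and no fold is given. The call (limma adjusted p = 0.0158) was not made without sham replicate 2 or 5, which had the highest values, nor without the arrays of slide 9 (0.385) or under median scaling (0.222).

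**Figure D4:**
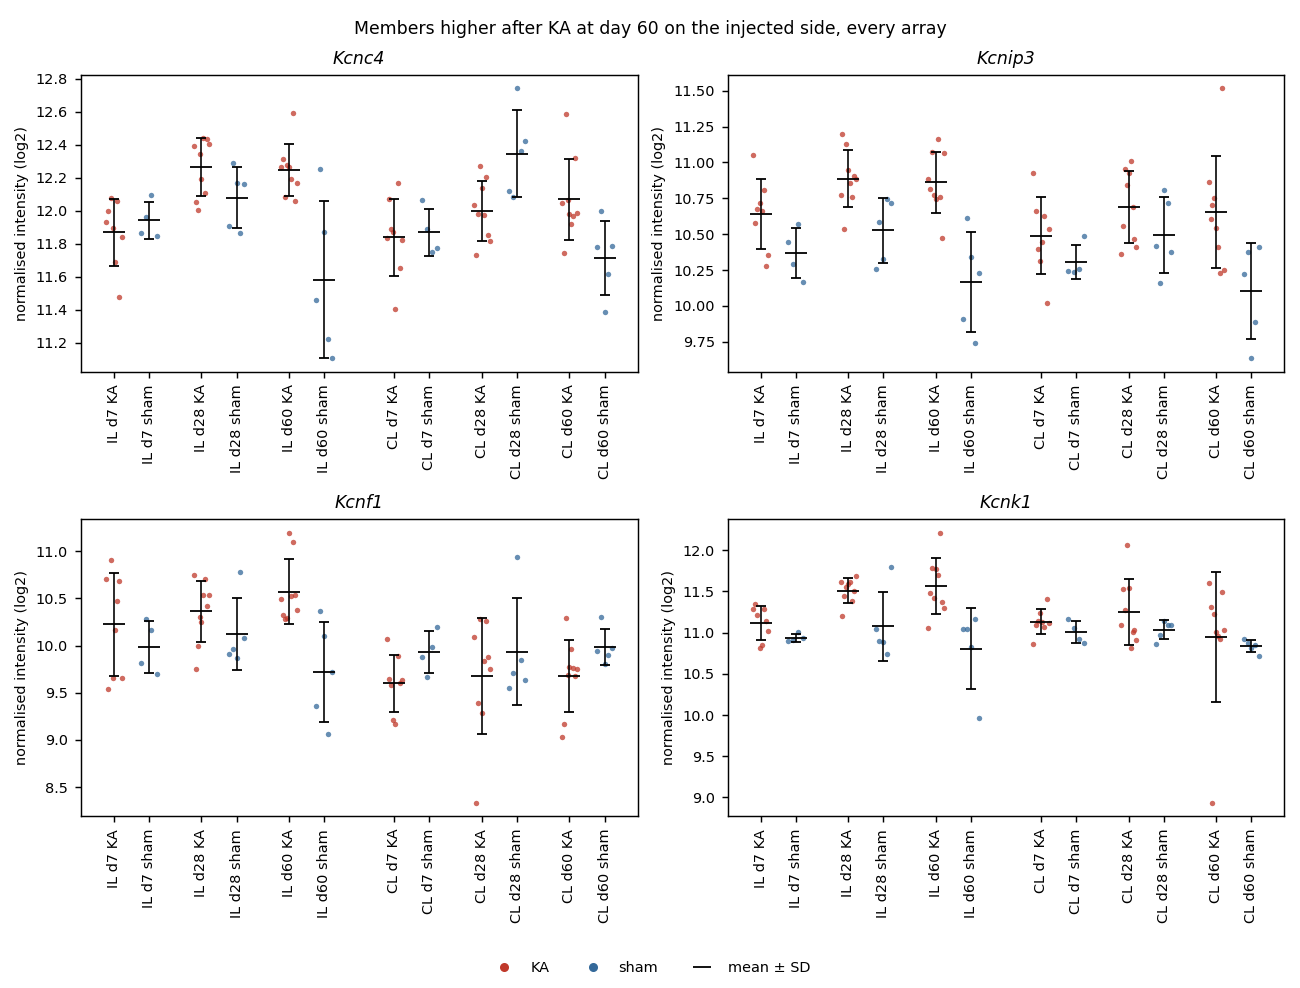
Normalised intensity (log2) of Kcnc4, Kcnip3, Kcnf1 and Kcnk1 on every array by side and day, KA mice in red left of sham mice in blue, with the mean ± SD in black. On the injected side at day 60 the sham mice spread more widely than the KA mice, and 1 sham mouse lies far below the others in Kcnk1.

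By class, the 7 Kv pore genes (Kcna1, Kcna2, Kcna3, Kcna6, Kcnc1, Kcnc4 and Kcnd2) all had a negative difference at day 7 on both sides, with a median of −0.33 on the IL and −0.21 on the CL side. Of these, Kcnc1 was called on the IL side. All 5 EAG genes (Kcnh1, Kcnh2, Kcnh3, Kcnh5 and Kcnh6) were negative at day 7 on the IL side, with a median of −0.14 and 0 called, although Kcnh5 was detected on 0 of the 8 KA and 0 of the 4 sham arrays there. Of the 9 Kir genes (Kcnj2, Kcnj3, Kcnj4, Kcnj6, Kcnj8, Kcnj9, Kcnj12, Kcnj15 and Kcnj16), 8 were negative, with a median of −0.27 and 0 called. The KCNQ genes Kcnq3 and Kcnq5 gave −0.26 and −0.67. Over all genes 42.5% of the differences were positive at day 7 on the IL side and 45.9% on the CL side, and counts of sign within a class carry no test.

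The 9 K2P genes (Kcnk1, Kcnk2, Kcnk3, Kcnk4, Kcnk5, Kcnk6, Kcnk10, Kcnk12 and Kcnk13) spread to both sides of 0 at day 7 on the IL side, with a median of 0.07, a low of −0.93 in Kcnk4 and a high of 1.90 in Kcnk6. The 14 auxiliary genes (Kcnab1, Kcnab2, Kcnab3, Kcne1, Kcne1l, Kcne2, Kcne4, Kcnip1, Kcnip2, Kcnip3, Kcnip4, Kcnmb2, Kcnmb4 and Kcnrg) had a median of −0.32, with 10 negative. The silent subunits Kcnf1, Kcng4, Kcns1, Kcns2 and Kcnv1 had a median of −0.04. Kcnma1, Kcnn1, Kcnn2, Kcnt1 and Kcnu1, the calcium or sodium activated class as grouped by symbol, lay between −0.38 and 0.11. On the IL side limma called 0 of them at any of the 3 times. By day 60 the medians on the IL side were 0.09 for the Kv pore genes, 0.13 for the Kir genes, −0.13 for the EAG genes and 0.01 for the K2P genes. Under median scaling they were 0.07, 0.03, −0.08 and −0.06. The change of the KA effect from day 7 to day 60 on the IL side had a median of 0.23 over the 56 genes, against 0.018 over all genes. It was positive in 42 of 56, against 52.8% of all genes. On the CL side the same change had a median of 0.14, against 0.023 over all genes. There it was positive in 39 of 56, against 53.7% of all genes.

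Kcne2, an accessory subunit highly expressed in the epithelium of the choroid plexus, had the widest range of levels, 4.42 to 10.21 over the 80 arrays, and was detected on 53. Its difference was −1.16 ± 0.92 at day 7 and −1.45 ± 0.84 at day 28 on the IL side (SE, limma adjusted p = 0.548 and 0.351). The mean of 4 choroid plexus markers (Ttr, Kl, Folr1 and Clic6) ran from 6.63 to 11.59 over the same arrays. It averaged 7.36 on the 16 arrays with the lowest Kcne2 and 10.67 on the 16 arrays with the highest. In 36 of 40 mice the side with more Kcne2 also had the higher mean of these markers. Of the 4 markers 0 were called at any time on the IL side or at day 7 on the CL side.

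**Figure D5:**
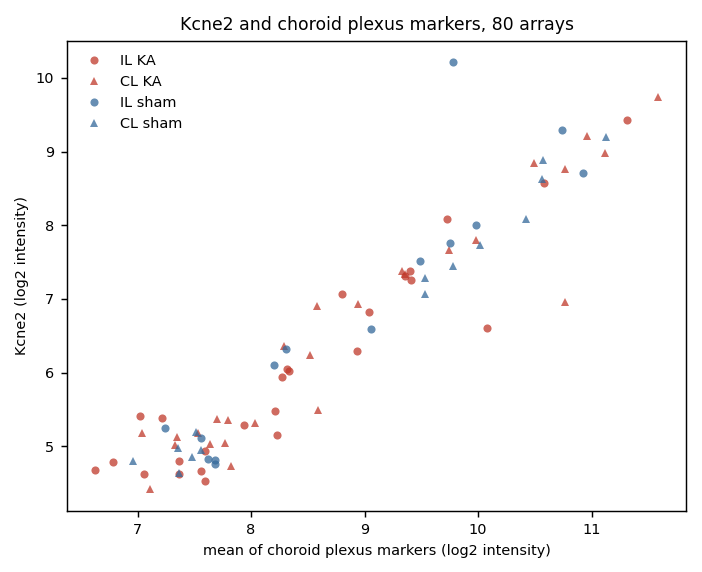
Level of Kcne2 (log2 intensity, vertical) against the mean of 4 choroid plexus markers (log2 intensity, horizontal) on the 80 arrays, KA in red and sham in blue, circles for the injected and triangles for the opposite side. Arrays with higher marker levels mostly have higher Kcne2 in all groups, and both colours run along the range.

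Genes that bind or place these channels were also examined. Of 23 such partners 17 were tested, and on the injected side at day 7 0 rose and 2 fell. They were Dlg4, the postsynaptic scaffold PSD-95 (−0.87 ± 0.20, SE, limma adjusted p = 0.000766), and Abcc8, the sulfonylurea receptor SUR1 (−0.67 ± 0.21, SE, limma adjusted p = 0.0303). Abcc8 was also lower at day 60 (−0.64 ± 0.20, SE, limma adjusted p = 0.0374), where 1.31% of all genes were called lower. The median of the partners was −0.22 at day 7, against −0.043 over all genes. Of all genes 7.45% were called higher and 3.03% lower on the injected side at day 7. Of 11 genes of potassium clearance and chloride cotransport 7 were tested, and 2 rose at day 7. They were Aqp4, the astrocyte water channel (1.41 ± 0.31, SE, limma adjusted p = 0.000595), and Atp1b2, the glial beta subunit of the sodium pump (0.72 ± 0.20, SE, limma adjusted p = 0.0107). Aqp4 was also higher at day 28 (0.92 ± 0.28, SE, limma adjusted p = 0.0342), where 4.43% of all genes were called higher. On the CL side limma called 0 genes of either list at days 7, 28 and 60. Of all genes 1.54%, 0.0879% and 0.0615% were called there.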

How the data were processed

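Labelled RNA of both hippocampi of 40 mice was hybridised to 80 mouse BeadChip arrays on 11 slides. The deposited probe intensity values and the deposited detection p-values were used as given. The authors' log2 values (series matrix) chose the brightest probe and served as an alternative. BeadStudio, GenomeStudio and Partek are named in the submitters' processing notes, with no settings. A second part of the deposited intensity table, in which 70 of 80 columns matched another array, held no Kcn probe and was left out, and 1 column of detection p-values was moved back by 1 line. Groups follow the sample labels; the series' design text gives another treatment for the sham mice of day 60.

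Intensities were corrected and quantile normalised with neqc (limma 3.58.1, R 4.3.3, offset 16). Probes detected at p under 0.05 on at least 4 arrays were kept, 16646 of 21244. limma fitted 12 group means with animal as a random block (correlation 0.0786), 12 contrasts, moderated two-sided tests and Benjamini-Hochberg adjustment over 11381 genes at 0.05. The number of arrays limits the precision. The test was checked on simulated data. The members, lists and tests were chosen with earlier results of these data known. Every called Kcn gene is named, as are all members by class. Replicate numbers did not pair the samples (correlations of deviations between −0.476 and 0.345), and 6 of 40 animals had the same number on both sides. Slides shared by both groups gave the within-slide values, and slide was also fitted as a block. Alternatives covered background correction, scaling, the authors' values, the filter on dim probes, the probe per gene, the animal, replicate and slide blocks and leaving out each array in turn. Leaving out animals 138 and 188 and slide 9 was chosen after seeing the data. Promoter windows come from RefSeq (GRCm38.p6), and no source used here names the array's own build.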

Additional observations from a re-analysis of the deposited data

Results flagged for a closer look

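In 3 of 42 sets of a called gene in a group of 4 to 10 mice, 1 array lay farther from the others than Dixon's gap test allows, and chance flags about 1 in 20 sets. Kcnk6 measured 7.41 in KA replicate 8 of the injected side at day 7 (mouse 188), against 9.21 to 9.66 in the other KA mice. Kcnc4 measured 12.6 in KA replicate 7 of the injected side at day 60, which was hybridised on slide 9. Kcnk1 measured 9.96 in sham replicate 5 of the injected side at day 60, also on slide 9.

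Effects of KA that differed between sides or days by their own test were 1.76 for Kcne1l (IL minus CL, day 28), 0.74 for Kcnc4 (day 60 minus day 7, IL) and −1.44 for Kcnk6 (day 60 minus day 7, IL). The first was lost with slide as a block (1.84, limma adjusted p = 0.0664) and the second without the arrays of slide 9 (0.57, limma adjusted p = 0.0997).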

How the results depend on the processing

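The results for single genes kept their direction under every other setting listed for the processing, 201 times with the call held and 15 times with it lost, and when 1 array was left out, 321 times with the call held and 33 times with it lost. With the replicate number as a block, 8, 5 and 7 genes were called at days 7, 28 and 60 on the injected side; the block ended the calls of Kcnc1 (−0.35, adjusted p = 0.054) and Kcnk13 (0.54, adjusted p = 0.07), and the numbers did not pair the samples. Under median scaling 3 genes were called at day 60 on the injected side, 2 for the IL minus CL difference at day 28 and 1 for the change from day 7 to day 60. Median scaling moved the median of all genes to −0.104 at day 7, to 0.1 for the IL minus CL difference at day 28 and to 0.106 for the change on the CL side, and split the called Kcn genes 2 higher and 5 lower, 3 and 0, and 3 and 0 on the injected side at days 7, 28 and 60. The IL minus CL difference at day 28 gave 2 calls with the mean of the kept probes or animal as a fixed block, and 0 with no animal block, slide as a block or without slide 9. At day 60 it gave 1 call under the strict filter or slide as a block and 2 with animal as a fixed block. The change to day 60 on the IL side gave 4 calls with slide as a block. Without both arrays of mouse 188 the counts were 2 for the IL minus CL difference at days 28 and 60 and 4 and 1 for the change to day 60 on the IL and CL side; without mouse 138 they were 2 on the injected side at day 28 and 1 for the IL minus CL difference at day 60. Without slide 9 they were 13, 2 and 3 on the injected side at days 7, 28 and 60, and 1 for the change to day 60 on the IL side. Leaving out 1 array gave 5 to 11 calls at day 7 (lowest without sham replicate 3), 2 to 4 at day 28 (lowest without KA replicate 6 or sham replicate 4 or 5) and 4 to 7 at day 60 (lowest without sham replicate 5) on the injected side. It gave 2 to 2 on the CL side at day 7, 0 to 1 for each IL minus CL difference, 1 to 3 and 0 to 1 for the change to day 60 on the IL and CL side, and 0 elsewhere. The cause of these shifts was not tested. Probes near background, such as those of Kcnh5, are limited by their signal, and p-values rest on 4 or 5 sham mice a group.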
